A study of Homo sapiens with 3 samples.

Results

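Many human protein-coding loci also give rise to a long non-coding RNA (lncRNA) from the opposite strand, named after the coding gene with the ending -AS and a number. The lncRNAs of this kind were taken as the NR entries of RefSeq of at least 200 nt with such a name, and each was paired with the coding gene named before the ending, its sense gene, where that gene had an NM (coding) entry. The rule gave 1008 transcripts of 692 genes, of 47239 transcripts in all. Of these genes, 676 were paired with 632 sense genes. A single antisense gene belonged to 595 sense genes and several, up to 5, to the other 37. The remaining 16 antisense genes, with 38 transcripts, carried names such as HOXA-AS3 or GAS5-AS1 whose stem had no coding entry.

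The question was how ribosome footprints of the antisense RNAs were distributed over 3 human lung cell lines, and whether they followed those of the sense genes. Ribosome footprints are the stretches of RNA that a ribosome shields from nuclease, sequenced after rRNA removal. The lines were H1299 and A549, both non-small cell lung cancer lines, and HBE, a bronchial epithelial line. Each was grown untreated in complete DMEM and measured with 1 library, so the spread between cultures is unknown, and no p-value is given. All intervals are exact 95% intervals that cover counting error only.

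The libraries held 35751992 mapped reads in H1299, 38268527 in A549 and 43580281 in HBE. Of these, 28478839, 31304697 and 34505579 lay on NM transcripts, and line ratios were scaled to these NM reads. As a check of the labels, the basal keratin gene KRT5 had 72 reads in H1299, 104 in A549 and 11262 in HBE, and NQO1, an NRF2 target gene known to be high in A549, had 4231, 51339 and 5222 in the same order. The surfactant gene SFTPB of alveolar cells had 112, 104 and 72 reads, and the club cell gene SCGB1A1 7, 6 and 12, so these markers of differentiated lung epithelium were low in all 3 lines.

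Antisense RNAs can act on the sense gene in several ways. They can occupy the shared promoter region, pair with the sense mRNA, or recruit chromatin modifiers, while others act on distant targets or have no known role. In mouse, the antisense RNA of Uchl1 raises translation of the Uchl1 mRNA. Most antisense lncRNAs contain only short open reading frames.

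Where an antisense gene lies relative to its sense gene was read from GENCODE 44 lifted to hg19, the build named in the processing notes of the submitters. Both genes were found for 644 of the 676 pairs, and they lay on opposite strands in all of these. In 240 pairs the main start sites were within 1000 nt of each other, an arrangement called head to head here. In 393 pairs the start sites were farther apart and the gene bodies overlapped, and 11 pairs lay apart. Exons of both genes overlapped in 366 pairs and did not in 278. Counting by strand is not stated in the sources used here, so where exons overlapped, reads of the antisense RNA and of the sense mRNA cannot be told apart.

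Of the 692 antisense genes, 427 had a window of 300 bases around a start site in the RefSeq promoter table of GRCh38.p14, running from 250 bases before to 50 after the start. The windows of 4 head to head pairs whose footprints are described below are shown, each on the strand of the antisense RNA. Capitals mark the stretch between the start of the sense gene, which lies upstream on the other strand, and the start of the antisense RNA. The first window lies at chr3:149377528-149377827 on the plus strand, the second at chr3:8501609-8501908 on the minus strand, the third at chr2:230995983-230996282 on the minus strand, and the fourth at chr11:10857967-10858266 on the plus strand.
TM4SF1-AS1: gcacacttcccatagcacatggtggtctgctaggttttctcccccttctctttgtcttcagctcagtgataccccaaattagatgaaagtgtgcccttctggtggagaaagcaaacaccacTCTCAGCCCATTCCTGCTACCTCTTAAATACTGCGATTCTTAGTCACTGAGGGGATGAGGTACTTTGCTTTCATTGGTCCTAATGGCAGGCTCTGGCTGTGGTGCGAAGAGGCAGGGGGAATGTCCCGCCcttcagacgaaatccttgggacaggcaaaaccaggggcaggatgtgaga
LMCD1-AS1: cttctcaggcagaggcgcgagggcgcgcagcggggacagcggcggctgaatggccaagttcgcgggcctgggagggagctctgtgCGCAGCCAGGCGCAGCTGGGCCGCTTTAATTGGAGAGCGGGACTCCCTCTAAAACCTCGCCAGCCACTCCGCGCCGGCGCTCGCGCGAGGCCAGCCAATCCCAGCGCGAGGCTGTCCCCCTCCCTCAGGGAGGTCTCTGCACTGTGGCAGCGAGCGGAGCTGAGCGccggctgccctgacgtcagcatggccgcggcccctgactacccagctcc
SPATA3-AS1: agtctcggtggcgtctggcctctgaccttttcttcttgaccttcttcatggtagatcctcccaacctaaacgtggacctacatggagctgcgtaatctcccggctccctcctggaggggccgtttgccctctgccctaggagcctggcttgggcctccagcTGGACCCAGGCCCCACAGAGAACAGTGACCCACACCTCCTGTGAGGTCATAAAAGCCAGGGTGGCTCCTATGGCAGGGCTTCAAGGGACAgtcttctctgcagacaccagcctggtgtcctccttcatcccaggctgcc
ZBED5-AS1: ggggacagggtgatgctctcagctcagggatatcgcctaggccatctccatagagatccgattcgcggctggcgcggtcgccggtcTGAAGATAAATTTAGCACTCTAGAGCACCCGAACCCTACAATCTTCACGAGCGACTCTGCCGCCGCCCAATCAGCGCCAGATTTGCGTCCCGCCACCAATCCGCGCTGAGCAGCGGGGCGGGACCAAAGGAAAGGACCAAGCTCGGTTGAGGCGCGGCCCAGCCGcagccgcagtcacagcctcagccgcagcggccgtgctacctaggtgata
The start sites lay 129 bases apart for TM4SF1-AS1 and TM4SF1, 165 for LMCD1-AS1 and LMCD1, 89 for SPATA3-AS1 and SPATA3, and 164 for ZBED5-AS1 and ZBED5. In each pair both genes thus started at either end of the capitals, 1 on each strand. The windows of LMCD1-AS1 and ZBED5-AS1 were rich in CpG, with 30 and 28 CG dinucleotides, whereas those of TM4SF1-AS1 and SPATA3-AS1 held 4 and 6. Over all head to head members the 149 windows had a median of 25 CG, against 7 in the 317 windows of members with overlapping gene bodies and 14 in all 35116 windows of the table. The letters TATAA, searched on both strands, occurred in none of the 4 windows shown, in 7.38% of the head to head windows, in 23.3% of those with overlapping gene bodies and in 20.4% of all.

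Footprint reads were found on most antisense RNAs, but at low levels. At least 10 reads, the threshold of the study for expression, fell on 709 of the 1008 transcripts in H1299 (70.3%, interval 67.4 to 73.1), on 721 in A549 (71.5%, 68.6 to 74.3) and on 675 in HBE (67.0%, 64.0 to 69.9). They did so in all 3 lines for 649 transcripts (64.4%). In a single line only, 14 transcripts reached 10 reads in H1299, 21 in A549 and 11 in HBE. With reads summed over the transcripts of each gene, 620, 628 and 599 of the 692 genes reached 10 reads, and 580 did in all 3 lines. In all 3 lines 77 transcripts had 0 reads, and 76 of them belonged to the 148 genes with several transcripts, whose transcripts share sequence, so that the split of reads between them is uncertain. A single gene had 0 reads throughout. At these depths a count of 0 allows up to 3 reads, or 0.105 RPM of NM reads in H1299, 0.0958 in A549 and 0.0869 in HBE.

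These shares were above those of the other 6408 lncRNAs, with 60.3% in H1299, 61.5% in A549 and 57.6% in HBE, and below those of 378 olfactory receptor transcripts, with 85.7%, 88.9% and 78.8%. Olfactory receptors are coding genes best known from the nose, and served here as a level for comparison from another tissue. Whether any of them is expressed in these lines was not tested. The median RPKM of the antisense transcripts, 0.651 in H1299, 0.646 in A549 and 0.429 in HBE, was likewise close to that of the olfactory receptors, 0.645, 0.690 and 0.461. It was also close to that of all NM transcripts, 0.626, 0.649 and 0.457, of which 67.4%, 68.1% and 66.2% reached 10 reads. NM transcripts differed from antisense transcripts at both ends. Their lower quartile was 0.0448, 0.0440 and 0.0313 RPKM, against 0.216, 0.250 and 0.130 for antisense transcripts. Their 95th percentile was 20.1, 20.1 and 18.1 RPKM, against 5.07, 5.08 and 3.65 for antisense transcripts. Above the 95th percentile of the olfactory receptors, at 4.89, 4.99 and 3.35 RPKM, lay 51 antisense transcripts in H1299 (5.06%), 53 in A549 (5.26%) and 57 in HBE (5.65%), against 6.68%, 6.35% and 7.04% of the other lncRNAs. By its definition this level leaves about 5% of the olfactory receptors above it. The same 40 transcripts exceeded it in all 3 lines. Read number rose with transcript length, with a Spearman rho of 0.50 over 899 transcripts with reads in H1299, 0.51 over 899 in A549 and 0.51 over 886 in HBE. These are descriptions across transcripts of 1 library each, and transcripts are not replicates.

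The antisense transcripts took 116705 reads in H1299, 131166 in A549 and 109238 in HBE, or 0.326%, 0.343% and 0.251% of the mapped reads. The 10 with most reads held 38.2%, 39.2% and 44.1% of them. SHANK2-AS1 (NR_046567, 2252 nt), opposite the gene of a scaffold protein of synapses, stood first in every line with 22251 reads in H1299, 23327 in A549 and 23975 in HBE, at 276, 271 and 244 RPKM. It alone held 19.1%, 17.8% and 21.9% of the antisense reads, and its level was nearly the same in the 3 lines, with an H1299 to HBE ratio of 1.12 (interval 1.10 to 1.15). MLLT4-AS1, head to head with the gene of the junction protein afadin, followed with 6771, 7054 and 5809 reads. SMAD5-AS1, opposite the gene of a BMP signal transducer, had 3714, 6034 and 4574 reads, and ZNF630-AS1, a transcript of only 397 nt, had 800, 1233 and 1034. The widest line ratio among these 4 RNAs was that of SMAD5-AS1, 1.48-fold lower in H1299 than in A549.

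**Figure D1:**
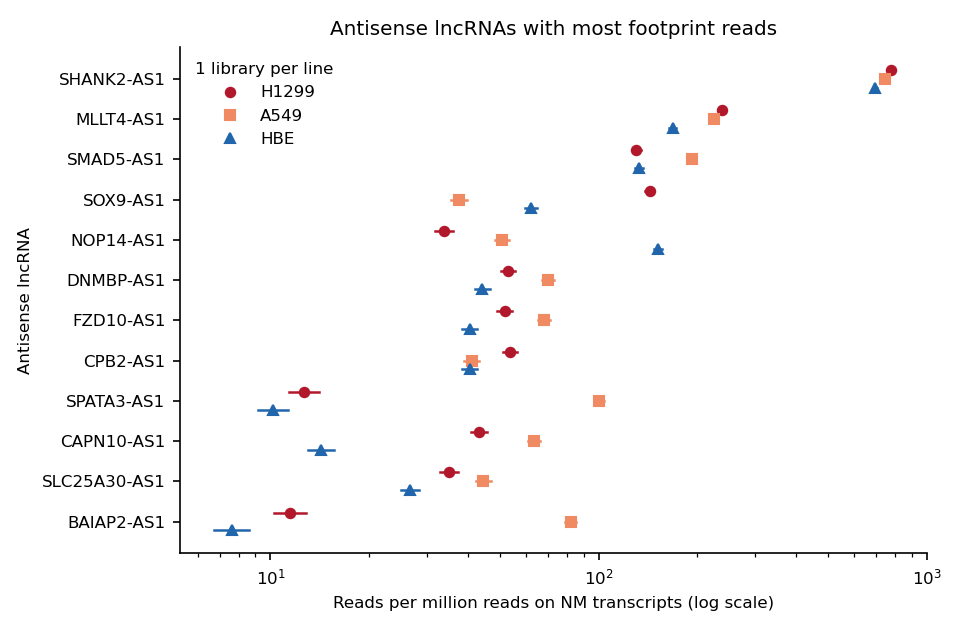
RPM relative to NM reads (log axis) of the 12 antisense transcripts with the highest sum over the 3 libraries. Circles are H1299, squares A549 and triangles HBE, 1 library each, and bars are exact 95% Poisson intervals. The order of the lines differs between RNAs: NOP14-AS1 is highest in HBE, SOX9-AS1 in H1299, and BAIAP2-AS1 and SPATA3-AS1 in A549.

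Others among the most abundant antisense RNAs differed more. SOX9-AS1, head to head with the gene of the transcription factor SOX9, had 4077 reads in H1299, 1174 in A549 and 2149 in HBE on its main transcript (NR_103738), and SOX9 had 1517, 931 and 942. NOP14-AS1, opposite the gene of a factor of small ribosomal subunit assembly, went the other way with 966 reads in H1299, 1594 in A549 and 5234 in HBE. It was 4.47-fold lower in H1299 (interval 4.17 to 4.79) and 2.98-fold lower in A549 (2.82 to 3.15) than in HBE. For NOP14 itself the reads were 3648, 1652 and 2485. In H1299, where NOP14-AS1 was at its lowest, NOP14 was at its highest of the 3 lines. In A549, however, both were lower than in HBE. Their exons overlapped over 737 nt.

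To count such differences, a transcript was called apart between 2 lines where its ratio was at least 4 with an interval wholly beyond 2, given at least 20 reads over both libraries. In H1299 against HBE, 15 of 689 antisense transcripts were higher (2.18%) and 3 lower (0.435%). Of all 30278 transcripts tested, 2.95% were higher and 2.4% lower (5.35% together), and of the other lncRNAs 2.67% and 0.847% (3.52%). In A549 against HBE, 15 of 697 were higher (2.15%) and 0 lower, against 2.5% and 1.46% of all transcripts (3.96%) and 1.6% and 0.655% of the other lncRNAs (2.25%). In H1299 against A549, 4 of 710 were higher (0.563%) and 7 lower (0.986%), against 1.32% and 2.24% of all transcripts (3.56%) and 1.27% and 0.969% of the other lncRNAs (2.24%). The shares called in either direction, 2.61%, 2.15% and 1.55% of the antisense transcripts, were thus below those of all transcripts. A call depends on read number, which differs between these sets, and shares at like read numbers are given further below. The interval included 1 for 299 of the 689 antisense transcripts in H1299 against HBE, for 336 of 697 in A549 against HBE and for 508 of 710 in H1299 against A549.

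The median antisense transcript was higher in both cancer lines than in HBE, by 0.60 on the log2 scale in H1299 and by 0.55 in A549, and by 0.06 in H1299 relative to A549. All kinds of transcript shared most of this shift. The other lncRNAs had medians of 0.53, 0.50 and 0.05, the olfactory receptors 0.41, 0.53 and -0.11, and the coding genes 0.38, 0.35 and 0.02. Relative to coding genes the antisense transcripts were higher by 0.23 in H1299 against HBE, by 0.20 in A549 against HBE and by 0.04 in H1299 against A549, values that do not depend on the scaling. In both comparisons with HBE the gap was smaller among genes with like read numbers over both libraries. Between 50 and 200 reads the medians of antisense and coding genes were 0.64 and 0.51 in H1299, and 0.56 and 0.50 in A549. Between 200 and 1000 reads they were 0.59 and 0.42 in H1299, and 0.54 and 0.40 in A549. Scaling by TMM (trimmed mean of M values) moved all log2 ratios by -0.40 in H1299 against HBE and by -0.36 in A549 against HBE. With it, 7 transcripts were higher and 6 lower in H1299, and 3 were higher and 1 lower in A549, relative to HBE. The count of 15 in A549 against HBE thus rests on the scaling, whereas the 4 and 7 of H1299 against A549 were the same under TMM.

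The transcripts called higher in A549 than in HBE under all 5 scalings were BAIAP2-AS1, SPATA3-AS1 and IDI2-AS1. BAIAP2-AS1 (NR_026857) lies on chr17:79002930-79008681 (hg19, minus strand), head to head with BAIAP2, whose protein links the membrane to actin. It had 327 reads in H1299, 2577 in A549 and 263 in HBE, a 10.8-fold higher level in A549 than in HBE (interval 9.51 to 12.3). BAIAP2 itself had 602, 479 and 774 reads and was lowest in A549. SPATA3-AS1 (chr2:231849083-231860747 in hg19, minus strand), whose start window is shown above, had 361, 3133 and 352 reads, 9.81-fold higher in A549 than in HBE (8.78 to 11.0), while SPATA3 had only 30, 40 and 21. Exons did not overlap in either pair. IDI2-AS1, opposite the gene of an isopentenyl diphosphate isomerase, had 18, 139 and 10 reads on the transcript NR_027709, which was 15.3-fold higher in A549 than in HBE (8.09 to 32.7). Another of its transcripts, NR_024629, had 41, 58 and 50 reads and was not apart between any lines, and summed over transcripts the gene was not called.

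Smaller A549 increases depended on the scaling. CAPN10-AS1, whose main start site lies 35 nt from that of the calpain gene CAPN10, had 1230 reads in H1299, 1990 in A549 and 493 in HBE, with ratios to HBE of 3.02 (2.72 to 3.36) in H1299 and 4.45 (4.03 to 4.92) in A549. CAPN10 had 351, 443 and 369. RNASEH1-AS1, head to head with the gene of a nuclease for the RNA in RNA-DNA hybrids, was about 4-fold higher in both cancer lines, with 188, 209 and 55 reads on NR_038429, against 853, 1049 and 686 for RNASEH1. ST8SIA6-AS1, opposite a sialyltransferase gene, had 256, 654 and 156 reads, and ST8SIA6 23, 25 and 21. All 3 were below the threshold for A549 against HBE under TMM.

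Several RNAs were higher in H1299 than in HBE. DLGAP1-AS2, within the gene of a postsynaptic scaffold protein, had 206 reads in H1299, 27 in A549 and 13 in HBE, 19.2-fold higher in H1299 than in HBE (interval 11.0 to 36.7) and 8.39-fold higher than in A549 (5.60 to 13.0). DLGAP1 had 304, 331 and 244 reads. PROSER2-AS1 had 249, 51 and 42 reads, 7.18-fold higher in H1299 than in HBE (5.16 to 10.2). Its sense gene PROSER2 ran against it with 206, 444 and 448. RNF219-AS1 had 229, 57 and 46 reads and was 6.03-fold higher in H1299 than in HBE (4.38 to 8.47), while RNF219 stayed level at 764, 840 and 869. GDNF-AS1, head to head with the gene of a neurotrophic factor, had 186, 49 and 33 reads on NR_103442, against 244, 239 and 176 for GDNF. MED4-AS1, opposite a Mediator subunit gene, had 36, 16 and 2 reads, too few in HBE for a close bound (21.8-fold, interval 5.61 to 187). IGSF11-AS1, opposite the gene of an adhesion molecule, had 43, 36 and 7 reads, while IGSF11 had 62, 245 and 174. IGSF11-AS1 was 7.44-fold higher in H1299 than in HBE (3.32 to 19.6), and was also called in A549 at 5.67-fold (2.49 to 15.1), except under TMM. The transcript NR_039994 of TMEM161B-AS1 had 26, 11 and 3. These 7 RNAs were higher in H1299 than in HBE under all 5 scalings.

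Beside NOP14-AS1, the RNAs called lower in H1299 than in HBE were PAX8-AS1 and NAPA-AS1. PAX8-AS1 overlaps the gene of PAX8, a transcription factor of thyroid and kidney, and is among the lncRNAs that the study names for a known microprotein. Its transcript NR_015377 had 115 reads in H1299, 895 in A549 and 794 in HBE, and was 5.70-fold lower in H1299 than in HBE (interval 4.68 to 6.99) and 7.08-fold lower than in A549 (5.82 to 8.67). The other transcript, NR_047570, had 74, 43 and 91 reads and was not apart between any lines, and PAX8 itself was flat at 488, 508 and 511. Exons of the pair overlapped over 1651 nt. NAPA-AS1, opposite the gene of the SNARE adaptor alpha-SNAP, had 2, 27 and 27 reads, and NAPA 338, 757 and 506. EGFLAM-AS2 and ZBED5-AS1 were called between H1299 and A549 but not between H1299 and HBE. EGFLAM-AS2 had 80, 446 and 361 reads on NR_102749, against 481, 496 and 1393 for EGFLAM. ZBED5-AS1, the fourth window shown, had 60, 270 and 171, and here the sense gene moved alike, with 223, 726 and 551 reads. ZBED5-AS1 was 4.09-fold lower in H1299 than in A549 (3.08 to 5.51) and ZBED5 2.96-fold lower (2.55 to 3.46). Exons of this pair overlapped over 618 nt.

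Line ratios of both members were then compared over all pairs with at least 20 reads for each, with transcripts summed by gene. In H1299 against HBE, the antisense gene was apart in 14 of 587 pairs (2.39%) and the sense gene in 28 (4.77%). In A549 against HBE it was 10 (1.69%) and 22 (3.72%) of 592, and in H1299 against A549 9 (1.49%) and 13 (2.16%) of 603. Of all coding genes, 2.32% were higher and 2.42% lower in H1299 against HBE (4.74% together), 1.99% and 1.47% in A549 against HBE (3.46%), and 0.944% and 2.03% in H1299 against A549 (2.98%). The shares of the sense genes were near this background. In no pair were both members apart, which held in each comparison and under each of the 5 scalings. With shares this small, few such pairs could be counted in any case.

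**Figure D2:**
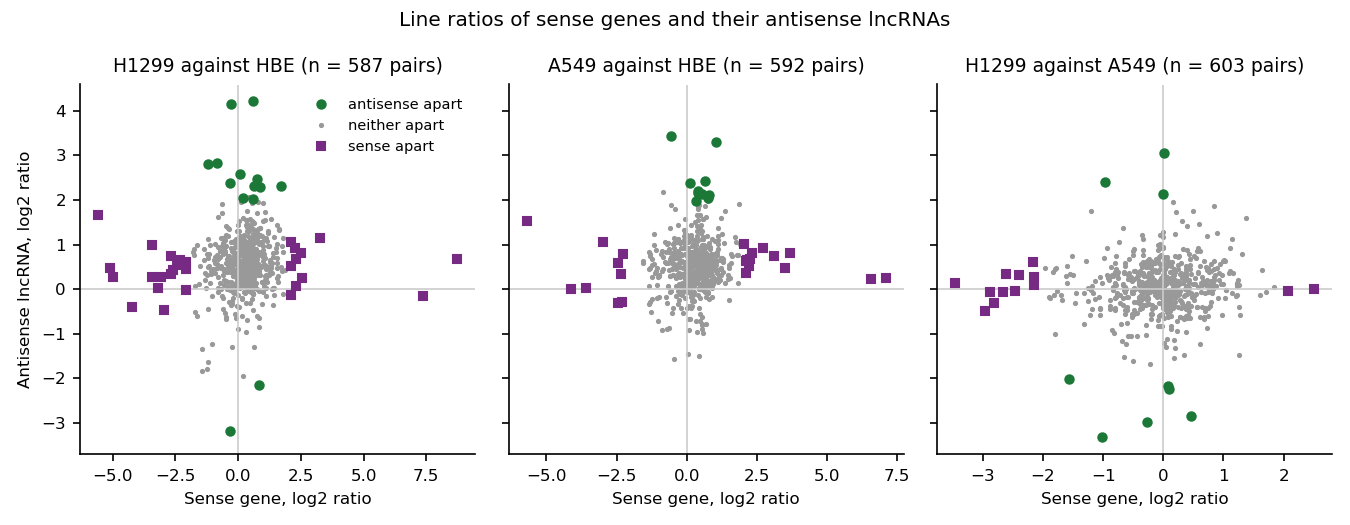
Log2 line ratio of the antisense gene (vertical axis) against that of its sense gene (horizontal axis, whose range differs between panels) for each pair with at least 20 reads per member, scaled to NM reads. Green circles are pairs with the antisense gene apart, purple squares pairs with the sense gene apart, and grey points pairs with neither. No pair has both members apart.

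At a wider threshold, a ratio of at least 2 with an interval beyond 1, the antisense gene passed in 133 and the sense gene in 131 of the 587 pairs of H1299 against HBE, and both in 26. In A549 against HBE the antisense gene passed in 92, the sense gene in 103 and both in 18 of 592, and between H1299 and A549 it was 44, 80 and both in 6 of 603. Since single members passed this often, nothing is read from the number of pairs with both. Both were higher in 17 of the 26 pairs of H1299 against HBE, both were lower in 5, and 4 had a higher antisense and a lower sense gene. A549 against HBE gave 14 pairs with both higher, 0 with both lower and 4 opposite. These numbers carry the upward shift shared by all transcripts. Under TMM both were higher in 2 pairs, both lower in 6 and opposite in 6 in H1299 against HBE, so the excess of pairs with both higher was not kept. This wider threshold was chosen after the data were seen. An example, likewise chosen after its values were seen, is ENO1-AS1 with 28 reads in H1299, 28 in A549 and 15 in HBE, against 37698, 43924 and 13111 for the glycolytic gene ENO1. Both members of this pair passed in both comparisons with HBE, but under TMM they did so in neither. The start sites of this pair lie 149 nt apart, and exons overlapped over 126 nt.

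The correlation over pairs was weak. Pearson's r between the log2 ratios of both members was 0.09 in H1299 against HBE (n = 587), 0.08 in A549 against HBE (n = 592) and 0.06 in H1299 against A549 (n = 603), with Spearman's rho of 0.11, 0.08 and 0.04. The points share their libraries, and many have few reads. Head to head pairs gave 0.13, 0.0063 and 0.10, and pairs with overlapping gene bodies 0.07, 0.15 and 0.02. Pairs with overlapping exons gave 0.10, 0.10 and 0.07, and those without 0.09, 0.06 and 0.02. Between the antisense gene and the nearest other coding gene, whose start lay a median of 73720 nt away, r was 0.09, 0.07 and 0.05 and rho 0.08, 0.03 and 0.0075. Between the sense gene and that neighbour r was 0.13, 0.15 and 0.06 and rho 0.15, 0.13 and 0.07. Pearson's r of the antisense gene was thus much alike with its sense gene and with the neighbour, whereas rho was lower with the neighbour in all 3 comparisons. All of these values were weak.

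Whether the share of antisense to sense footprints differed between lines was measured with a double ratio, the antisense to sense ratio of one line over that of the other, in which the library size cancels. It was called at 4-fold with an interval beyond 2. In H1299 against HBE 42 pairs were called (7.16% of 587), 34 with relatively more antisense reads in H1299 and 8 with fewer. In A549 against HBE 26 were called (4.39% of 592), 21 with more and 5 with fewer, and in H1299 against A549 29 (4.81% of 603), 22 with more and 7 with fewer. Over all these pairs the median log2 ratios of antisense and sense genes were 0.60 and 0.30 in H1299 against HBE. They were 0.56 and 0.37 in A549 against HBE, and 0.06 and -0.01 in H1299 against A549. The counts carry these shifts. No like share was computed for other pairs of genes, so whether the counts are particular to antisense pairs was not tested. Among head to head pairs 5.36%, 6.7% and 5.33% were called in the 3 comparisons, and among pairs with overlapping gene bodies 8%, 2.72% and 4.41%. Neither arrangement thus gave the higher share in all of them. Pairs with overlapping exons did, with 8.43%, 4.49% and 5.34% called, against 4.82%, 3.88% and 4.18% of pairs without. This difference between pairs was not tested.

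Among the 42 pairs of H1299 against HBE the sense gene was lower in 17 and higher in 5, the antisense gene was higher in 6 and lower in 2, and neither member alone was apart in 12. Among the 26 of A549 against HBE the sense gene was lower in 9 and higher in 5, the antisense gene higher in 3, and neither apart in 9. Among the 29 of H1299 against A549 the sense gene was lower in 11 and higher in 2, the antisense gene higher in 3 and lower in 4, and neither apart in 9. Where the sense gene was lower, the median log2 ratio of the antisense genes was 0.43 for H1299 against HBE, 0.34 for A549 against HBE and 0.09 between H1299 and A549, against -2.94, -2.46 and -2.61 for the sense genes. The sense gene was higher in 11, 13 and 2 pairs of the 3 comparisons, counting also pairs whose double ratio was not called. Over all of these the antisense medians were 0.67, 0.66 and -0.02, and the sense medians 2.31, 2.34 and 2.29. The size of the sense medians on either side follows from choosing the pairs by the sense ratio, and is not a result. Set beside the medians of all paired antisense genes, 0.60 in H1299 against HBE and 0.56 in A549 against HBE, the antisense medians stayed near their usual value on either side. Single antisense genes varied, from -0.47 to 1.66 in H1299 against HBE and from -0.30 to 1.52 in A549 against HBE where the sense gene was lower.

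**Figure D3:**
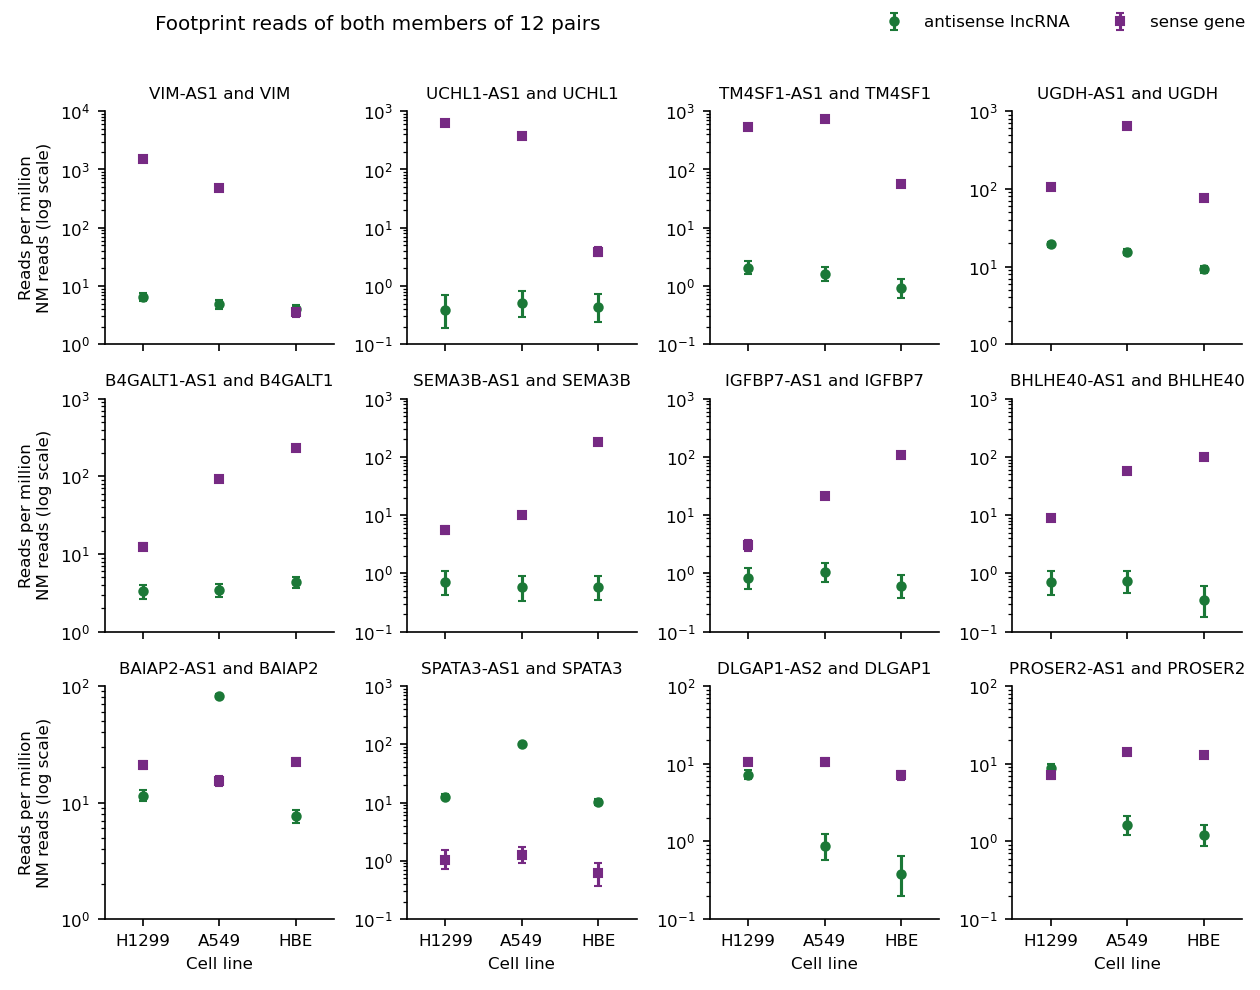
RPM relative to NM reads (log axis, own range in each panel) of antisense lncRNAs (green circles) and sense genes (purple squares) in H1299, A549 and HBE, for 12 pairs. Bars are exact 95% Poisson intervals. In the upper 8 panels the sense gene spans a wider range than the antisense RNA, and in the lower 4 the antisense RNA spans the wider range.

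VIM, the intermediate filament gene of mesenchymal cells, gave the widest contrast. VIM-AS1 (chr10:17256238-17272017 in hg19, minus strand) had 186 reads in H1299, 151 in A549 and 140 in HBE. VIM had 43694, 15327 and 124. The antisense RNA was thus 1.61-fold higher in H1299 than in HBE (interval 1.29 to 2.02), and the sense gene 427-fold higher (358 to 513). Per kb, VIM-AS1 stood at 0.00546 of the level of VIM in H1299, at 0.0119 in A549 and at 1.40 in HBE. Exons of the pair overlapped over 656 nt.

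UCHL1, a deubiquitinase of neurons and neuroendocrine cells, gave a similar picture. UCHL1-AS1 had 11 reads in H1299, 16 in A549 and 15 in HBE, against 18188, 11656 and 134 for UCHL1. The ratios of UCHL1-AS1 to HBE, 0.889 (0.369 to 2.07) in H1299 and 1.18 (0.544 to 2.55) in A549, had intervals that included 1, while the sense gene was 164-fold higher in H1299 (139 to 196) and 95.9-fold higher in A549 (80.9 to 115). With so few reads, a difference of the antisense RNA within these bounds was not detectable at this depth.

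TM4SF1 and LMCD1 start within the first 2 windows shown above. TM4SF1-AS1 had 59 reads in H1299, 51 in A549 and 32 in HBE, and TM4SF1, which encodes a membrane protein of the L6 family, 15479, 22710 and 1942. In H1299 against HBE the antisense ratio was 2.23 (1.43 to 3.55) and the sense ratio 9.66 (9.21 to 10.1). Exons did not overlap. LMCD1-AS1 had 80, 100 and 79 reads, against 142, 583 and 57 for the LIM domain gene LMCD1, which was 11.3-fold higher in A549 than in HBE (8.58 to 15.1).

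UGDH makes UDP-glucuronate, the donor for glucuronidation and for glycosaminoglycans. UGDH-AS1 had 550 reads in H1299, 480 in A549 and 317 in HBE, and UGDH 3014, 20268 and 2601. UGDH-AS1 was 1.67-fold higher in A549 than in HBE (1.45 to 1.93) and UGDH 8.59-fold (8.25 to 8.95). The antisense RNA was thus highest in H1299 and the sense gene in A549.

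On the other side were genes with most reads in HBE. SEMA3B-AS1 had 20 reads in H1299, 18 in A549 and 20 in HBE, while SEMA3B, a secreted semaphorin, had 160, 320 and 6109. The sense gene was 31.5-fold lower in H1299 than in HBE (26.9 to 37.1) and 17.3-fold lower in A549 (15.5 to 19.4). IGFBP7-AS1 had 24, 33 and 21 reads, and IGFBP7, a secreted protein that binds insulin-like growth factors, 87, 679 and 3644. B4GALT1-AS1 had 94, 108 and 150 reads, and its head to head partner B4GALT1, a galactosyltransferase of the Golgi, 355, 2881 and 7978. For BHLHE40-AS1 the reads were 20, 23 and 12, and for BHLHE40, a transcriptional repressor of the circadian clock, 255, 1774 and 3367. In none of these 4 pairs was the antisense RNA apart between any lines. For SEMA3B-AS1, IGFBP7-AS1 and BHLHE40-AS1 the reads were too few to detect any but large differences.

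C9orf135-AS1, whose main start lies 134 nt from that of C9orf135, had 19 reads in H1299, 19 in A549 and 7 in HBE, and C9orf135 had 11, 11 and 658. The order was reversed, with the antisense RNA 3.29-fold higher in H1299 than in HBE (1.32 to 9.26) and the sense gene 49.4-fold lower (27.4 to 99.4), but the antisense RNA rests on 7 reads in HBE. OXCT1-AS1 had 45, 51 and 27 reads, and OXCT1, an enzyme of ketone body use, 667, 173 and 1526. ENTPD3-AS1 was flat at 151 reads in H1299, 151 in A549 and 152 in HBE, and ENTPD3, an ectonucleotidase, had 35, 428 and 466.

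Within a line, the antisense gene was usually below its sense gene. On the scale of reads per kb of transcript, the antisense gene was higher in 162 of 676 pairs in H1299 (24.0%), in 137 in A549 (20.3%) and in 132 in HBE (19.5%), and in 100 pairs (14.8%) in all 3. The median log2 ratio of antisense to sense level was -1.55 in H1299, -1.67 in A549 and -1.91 in HBE, that is 2.93, 3.18 and 3.75-fold lower. In head to head pairs it was -1.74, -1.82 and -2.11, and in pairs with overlapping gene bodies -1.50, -1.47 and -1.73. Median antisense levels were 1.44, 1.34 and 0.897 RPM of NM reads per kb in head to head pairs and 1.18, 1.14 and 0.775 in pairs with overlapping gene bodies. Median sense levels differed more between the arrangements, at 5.21, 5.20 and 4.67 in head to head pairs and 2.99, 3.27 and 2.58 in the others.

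**Figure D4:**
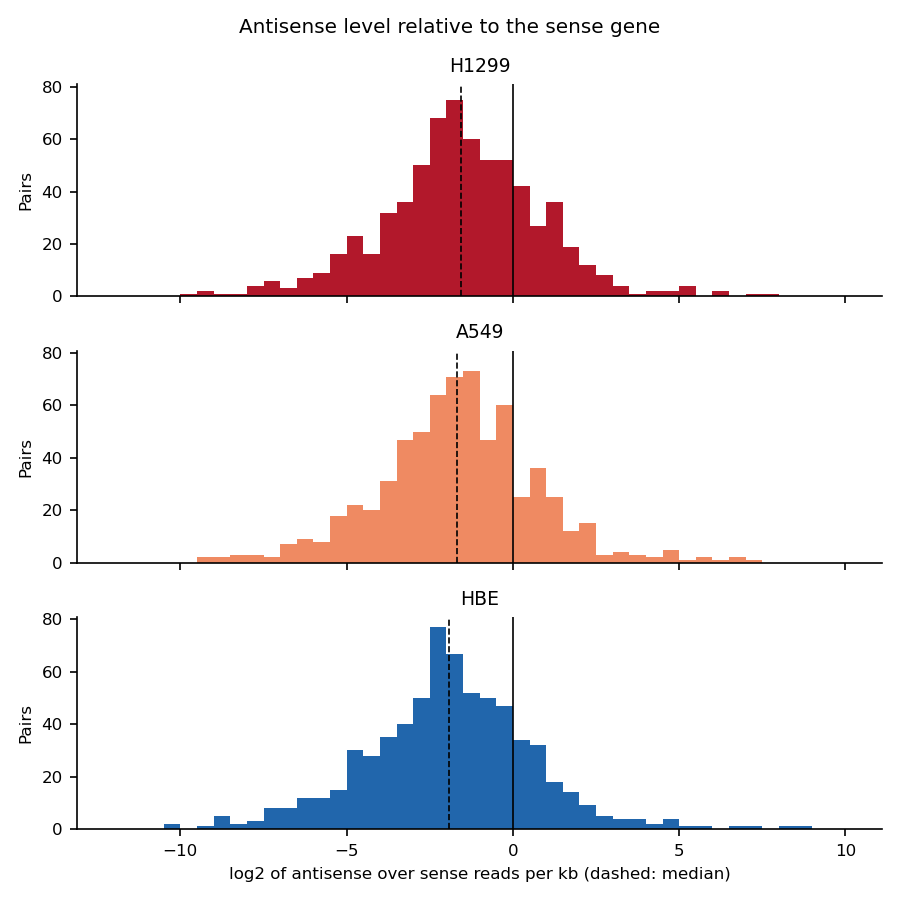
Distribution over 676 pairs of the log2 ratio of antisense to sense reads per kb, 1 panel per line in the order H1299, A549, HBE, with 0.5 reads added to each count. The solid line marks equal levels and the dashed line the median, at -1.55, -1.67 and -1.91.

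Some antisense genes exceeded their sense gene many times. SHANK2-AS1 stood 238-fold above SHANK2 per kb in H1299, 99.1-fold in A549 and 160-fold in HBE, with 442, 1111 and 708 reads on SHANK2. ZNF630-AS1 stood 69.4, 106 and 113-fold above ZNF630, a zinc finger gene with 77, 78 and 62 reads. SMAD5-AS1 was 32.1, 30.5 and 26.0-fold above SMAD5, and CPB2-AS1 was 34.9, 15.1 and 27.8-fold above CPB2, a carboxypeptidase made by liver, which had 23, 44 and 26 reads. SLC25A30-AS1 was 30.2, 29.8 and 26.8-fold above SLC25A30, the gene of a mitochondrial carrier. SPATA8-AS1 was 39.4, 51.0 and 30.5-fold above SPATA8, which had 23, 21 and 22 reads, and RGPD4-AS1 36.7, 24.5 and 35.0-fold above RGPD4, which had 16, 21 and 12. CHKB-AS1 had 77 reads in H1299, 82 in A549 and 61 in HBE, and also ranked among the 10 highest, but CHKB, the gene of a choline kinase, had only 1, 5 and 0 reads on NM transcripts, too few for a close ratio. FUT8-AS1 and ZNF667-AS1 also exceeded the NM transcripts of their sense genes, but for these genes the reads lay elsewhere. FUT8 had 0, 3 and 2 reads on its NM transcripts and 550, 450 and 522 on its NR transcripts, and ZNF667 6, 2 and 3 on NM and 651, 580 and 417 on NR. Such a preference for NR transcripts in all 3 lines was found in 11 of the 632 sense genes. No like share was computed for all coding genes, so nothing is read from this count.

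The spread of line ratios was compared at like read numbers, since a ratio from few reads varies more. Among genes with 200 to 1000 reads over both libraries, the interquartile range of the log2 ratio over antisense genes was 0.58 for H1299 against HBE, 0.49 for A549 against HBE and 0.50 between H1299 and A549, against 0.76, 0.66 and 0.66 over coding genes and 0.76, 0.66 and 0.63 over the sense genes. Between 50 and 200 reads it was 0.62, 0.49 and 0.60 over antisense genes and 0.66, 0.62 and 0.62 over coding genes. The range was thus narrower over antisense genes than over coding genes in both classes and all 3 comparisons. Called apart at 200 to 1000 reads were 2.89%, 1.14% and 2.54% of antisense genes, against 4.56%, 3.24% and 2.47% of coding genes. Between 50 and 200 reads it was 1.38%, 1.02% and 0%, against 2.31%, 1.68% and 1.16%. The antisense share was thus not below that of coding genes at 200 to 1000 reads in H1299 against A549, and was below it otherwise. These are descriptions across genes, which are not replicates.

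Of 31 names of antisense lncRNAs studied in cancer, 28 genes with 65 transcripts were found. Between H1299 and HBE 0 of 36 tested were higher and 1 lower, in A549 against HBE 0 of 35 were apart, and in H1299 against A549 0 of 38 were higher and 1 lower. These counts are near the shares of all antisense transcripts, 2.61%, 2.15% and 1.55%, and nothing is read from them. The median log2 ratios of this list were 0.60, 0.54 and 0.09, close to those of all antisense transcripts. Another list took the 74 transcripts of 35 antisense genes whose names begin with the symbol of a developmental transcription factor family. It includes the HOX cluster names without a sense gene, and PAXIP1-AS1 and PAXBP1-AS1, whose sense genes are partners of PAX proteins and not such factors. Of 42 tested, 0 were higher and 1 lower in H1299 relative to HBE, the same counts were found among 43 relative to A549, and A549 and HBE had 0 of 43 apart, again near the shares of all antisense transcripts. Their median log2 ratios were 0.58, 0.43 and 0.24. The transcript called was PAX8-AS1 NR_015377 each time.

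Of the antisense transcripts for which the study lists a protein found by mass spectrometry, 42 were members. The study chose them on cells that include these lines, so their detection here is not independent. At least 10 reads fell on 41 of them in H1299, 41 in A549 and 40 in HBE, and their median RPKM was 1.01, 1.01 and 0.665. PAX8-AS1 was again the transcript called lower in H1299. Among those that the study names for a known microprotein, MAPKAPK5-AS1, head to head with a kinase gene, had 204, 345 and 129 reads and was 2.95-fold higher in A549 than in HBE, and MBNL1-AS1, opposite a splicing regulator gene, had 274, 306 and 215 on its main transcript. OTUD6B-AS1, head to head with the gene of a deubiquitinase, had 208 reads in H1299, 197 in A549 and 124 in HBE, against 889, 414 and 363 for OTUD6B. In H1299 against HBE its ratio was 2.03 (1.62 to 2.56) and that of OTUD6B 2.97 (2.62 to 3.36), and exons of the pair overlapped over 271 nt. Both members of this pair passed the wider threshold, but not under TMM. The 16 antisense genes without a sense gene had at least 10 reads on 16, 17 and 16 of their 38 transcripts in H1299, A549 and HBE. Apart were 0 of 16 tested in H1299 against HBE, 0 of 16 in A549 against HBE and 0 of 17 in H1299 against A549. With shares of 2.61%, 2.15% and 1.55% over all antisense transcripts, nothing is read from these counts.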

How the data were processed

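Ribosome footprints of H1299, A549 and HBE cells were analysed, with 1 library per line. The authors depleted rRNA, prepared small RNA libraries, removed adapters, truncated reads at the first base of low quality and mapped them with FANSe2 to RefSeq RNA (no version of FANSe2 given in the sources used here). The processing notes name hg 19. The deposited read counts per transcript were not normalised by the authors. The deposited RPKM values were made by the authors from these counts, per kb of transcript and per sum of all counts of the library. Counting by strand is not stated in the sources used here.

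Each library was taken from the table named after its line. Antisense transcripts were the NR entries of at least 200 nt named after a gene with -AS and digits, and 1 locus is not reported here. Sense reads were summed over the NM transcripts of the gene and antisense reads over its NR transcripts. Levels per kb used the length of each transcript, with 0.5 reads added. Line ratios were scaled to the sum of NM reads. Ratios carry exact conditional binomial intervals, counts exact Poisson intervals and shares Clopper-Pearson intervals, all at 95%. With 1 library per line there was no test between lines. A value was called apart at a ratio of at least 4 with an interval beyond 2 and at least 20 reads over both libraries.

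Genes named in the text were the 10 antisense transcripts with most reads in each library, the 10 with the largest ratios in each direction between lines (at least 50 reads and an interval beyond 2), the 10 pairs with the largest double ratios, the 10 with the highest antisense over sense level, those the study names, and examples from lists. Other genes named are said to have been chosen after their values were seen. The antisense genes and the lists were chosen with earlier results of these data known. Positions came from GENCODE 44 lifted to hg19 and start windows from RefSeq on GRCh38.p14. Alternatives were other scalings (TMM and upper quartile factors of edgeR 4.0.16 in R 4.3.3, all mapped reads, NM reads without the 10 largest), thresholds, read minimums, added reads, sense isoforms and pairs without overlapping exons. Calculations used Python 3.11.15 with numpy 2.4.6, pandas 2.3.3 and scipy 1.17.1, figures matplotlib 3.10.9, and the scripts were tested on simulated data.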

Additional observations from a re-analysis of the deposited data

Results flagged for a closer look

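Antisense RNAs named without a number, and transcripts of antisense genes classed as coding, lay outside the comparisons above but had reads above the 3 that a count of 0 allows. BDNF-AS (NR_033312) had 2098 reads in H1299, 1038 in A549 and 628 in HBE, 4.05-fold higher in H1299 than in HBE (interval 3.70 to 4.43). HOXA11-AS (NR_002795) had 300, 330 and 224 reads in the same order, and WT1-AS (NR_023920) had 207, 198 and 413. Of 21 such NR transcripts, 18 had more than 3 reads in all 3 lines. The NM transcript of RUSC1-AS1 (NM_001039517) had 41 reads in H1299, 44 in A549 and 29 in HBE.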

How the results depend on the processing

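No paired analysis was possible because there is a single library for each line. The correlations of antisense and sense ratios stayed weak in all 21 settings, from 0.02 to 0.13. With 1.0 RPKM required beside 10 reads, 363 antisense transcripts were detected in H1299, 341 in A549, 219 in HBE and 208 in all 3. Above the 90th percentile of the olfactory receptors lay 140, 115, 108 and, in all 3 lines, 84, and above the 99th 9, 5, 4 and 4. The counts that follow are in the order H1299 against HBE, A549 against HBE, H1299 against A549. At a ratio of 2 with an interval beyond 1, 156, 118 and 54 antisense transcripts, 137, 103 and 84 sense genes, 162, 152 and 126 double ratios and 26, 18 and 6 pairs with both members were called. At a ratio of 8 these were 4, 3 and 2 antisense transcripts and 11, 9 and 1 sense genes. In A549 against HBE 4 antisense transcripts were called with TMM, 4 with upper quartile factors and 8 without the 10 largest NM entries, and TMM left 15 sense genes. In H1299 against HBE the upper quartile gave 11 higher and 4 lower antisense transcripts and 7 higher and 20 lower sense genes, and TMM 5 higher and 25 lower sense genes. In A549 against HBE, 6 sense genes were higher and 9 lower with TMM, and 9 and 9 with the upper quartile. Without pairs with overlapping exons, 11, 9 and 10 double ratios were called, from fewer pairs, and the antisense level was higher in 70 pairs in H1299, 63 in A549 and 55 in HBE. With at least 50 reads per member, 17 double ratios were called in A549 against HBE. Of the settings, 21 of 30 for antisense transcripts and 26 of 33 for sense genes left the count within 1.5 times. Without replicate cultures, no count here has an error between cultures.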
